A study of Homo sapiens with 2 samples.

Results

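Aminoacyl-tRNA synthetases, the enzymes that join each amino acid to its transfer RNA, were followed in Ca9-22 cells carrying a control vector or a DLEU1 vector. A list of 36 human synthetase genes was taken, and a probe was counted as a member when it was not a control probe and its gene name in the array files equalled a listed symbol. All 36 genes had a probe, giving 41 probes and 50 spots out of 58201 probes, 60901 spots and 43317 gene names on the array. Symbols are those of the files, which predate the current names with a trailing 1 for the cytosolic enzymes.

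The Ca9-22 line derives from oral squamous cell carcinoma (OSCC), and DLEU1 is a long noncoding RNA. Cells received a lentiviral vector, either one expressing DLEU1 or a control vector, and both groups then underwent 2 weeks of blasticidin selection at a labelled dose of 6 mg/ml. The full-length DLEU1 sequence had been cloned from cDNA of another OSCC line, KON, and the control was an empty vector, per the study's methods. Each group was 1 array of total RNA (100 ng, labelled with Cy3) from 1 culture, so no test, p-value or SD between cultures could be computed, and every difference below compares these arrays and not the conditions.

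Each synthetase recognises its amino acid and its transfer RNAs, and the charged transfer RNA is then delivered to the ribosome. Most amino acids are served by a pair of nuclear genes, one for the cytosolic enzyme and one, usually ending in 2, for the mitochondrial enzyme, while GARS and KARS make both forms. Several cytosolic enzymes sit in a multi-synthetase complex on scaffold proteins, and many cytosolic synthetase genes are induced by the transcription factor ATF4 when amino acids run short. Tryptophanyl-tRNA synthetase (WARS) is known as a gene induced by interferon gamma.

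The lines below give the 60-base probes of 3 members the results turn on, with the hg19 positions of the deposited files. FARSB and IARS were probed within the gene at chr2:223489002-223489061 and chr9:94991283-94991342, both on the minus strand, and the NARS2 probe spanned 2603 bases of genome (chr11:78152143-78154745, minus strand), that is, it crosses an intron. FARSB had the largest difference of any member detected on both arrays, the IARS probe shown (-1.02) is 1 of 3 probes of that gene and not the brightest one (chr9:94972871-94972930), which gives the gene's value below, and NARS2 had the largest difference among mitochondrial members detected on both arrays.
FARSB: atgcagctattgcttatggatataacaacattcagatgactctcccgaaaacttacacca
IARS: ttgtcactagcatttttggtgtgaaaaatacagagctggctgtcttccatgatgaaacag
NARS2: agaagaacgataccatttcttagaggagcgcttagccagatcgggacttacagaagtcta

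Levels are the log2 processed intensity of a probe minus the 75th percentile of its array, and each difference is the DLEU1 vector level less the control vector level. The arrays detected 47.6% of probes (control vector) and 48.1% (DLEU1 vector). The DLEU1 probe with the strongest signal went from 3.17 in control vector cells to 5.91 in DLEU1 vector cells, a 6.67-fold higher signal, and the other DLEU1 probes were 1.81-fold and 1.46-fold higher. All 7 epithelial markers were detected on both arrays, 5 above 0 and 2 below, from -0.78 for EPCAM to 3.09 for KRT17. Of markers of other cell types, all 4 immune markers (from -1.60 for CD14 to 0.45 for PTPRC), 2 of 6 fibroblast markers (COL1A1 at 3.99 and PDGFRB at -0.33) and 2 of 3 endothelial markers (VWF at 3.70 and CDH5 at -0.59) were detected on both arrays. LUM was detected with the DLEU1 vector only. Levels with the control and DLEU1 vector were -1.96 and -3.56 for CD14 and -1.74 and -1.28 for PTPRC. COL1A1 read 0.47 and 4.47, and VWF -2.33 and 1.37. The dimmest detected levels of the arrays were -4.09 and -4.04. The part of these markers in the results was not tested. In bulk RNA, fewer cells of a kind and less RNA per cell cannot be told apart. No member spot (0 of 50) was saturated, marked as an outlier or inside a strip of 163 spots where signals were low together on 1 array.

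Synthetase signals were mostly lower with the DLEU1 vector. Of the 36 genes, 35 were detected on both arrays, 30 of them below 0 and 5 above, with a median difference of -0.48 (quartiles -0.74 and -0.13). Of all 20246 genes detected on both arrays, 10968 were below 0 and 9278 above, with a median of -0.07. Over the alternative settings, 25 to 35 synthetases were below 0. The count of 35 came with spike-in scaling, where the median of all genes was -0.47. A signal at least 2-fold lower was seen for 6 of the 35 synthetases (17.1%), beside 9.78% of all genes, and at least 2-fold higher for 0 of 35, beside 9.18% of all genes. A total of 27 synthetases lay below the median of all genes. The technical spread gives the scale of these values. The SD of the difference of a single spot was 0.0800, from 282 probes spotted several times. Probes of the same gene varied around the mean of their gene with a pooled SD of 0.470 (4674 genes). The median of the SDs of single genes was lower, at 0.232. A gap between 2 probes has a wider spread than 1 probe around its gene mean. The 2-fold count depended on the scaling. With loess normalization, which removes the trend of the difference with brightness, 2 synthetases (5.71%) were at least 2-fold lower beside 8.16% of all genes, and with quantile normalization 3 (8.57%) beside 8.64%, so the share of synthetases past 2-fold did not exceed that of all genes under those settings.

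**Figure D1:**
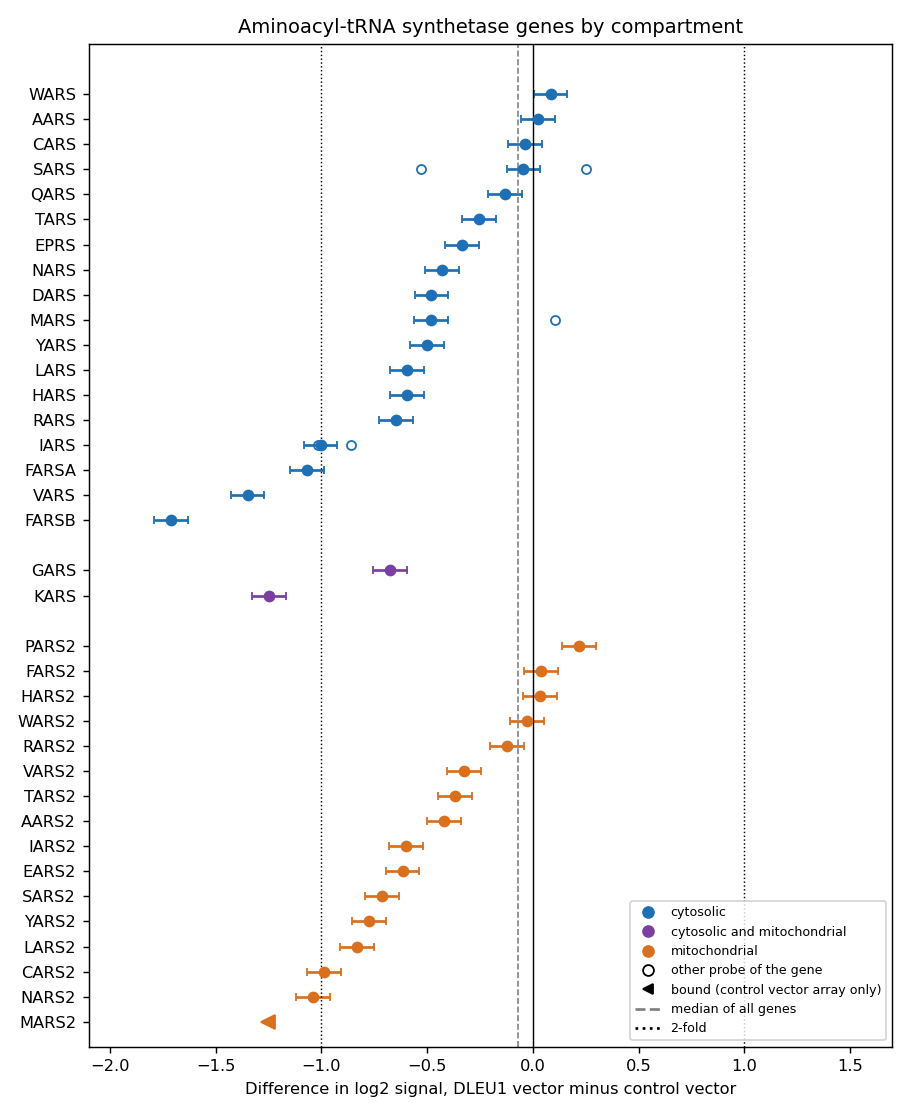
Difference in log2 signal, DLEU1 vector minus control vector, for each synthetase gene by compartment, with filled points for the value of the gene, open points for its other probes, bars of 1 technical SD of a spot (0.0800), a triangle for the bound on MARS2, a dashed line at the median of all genes and dotted lines at 2-fold. Filled points run from -1.71 (FARSB) to 0.22 (PARS2), and most lie left of the dashed line in every compartment. The open point furthest right is a SARS probe at 0.25.

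**Figure D2:**
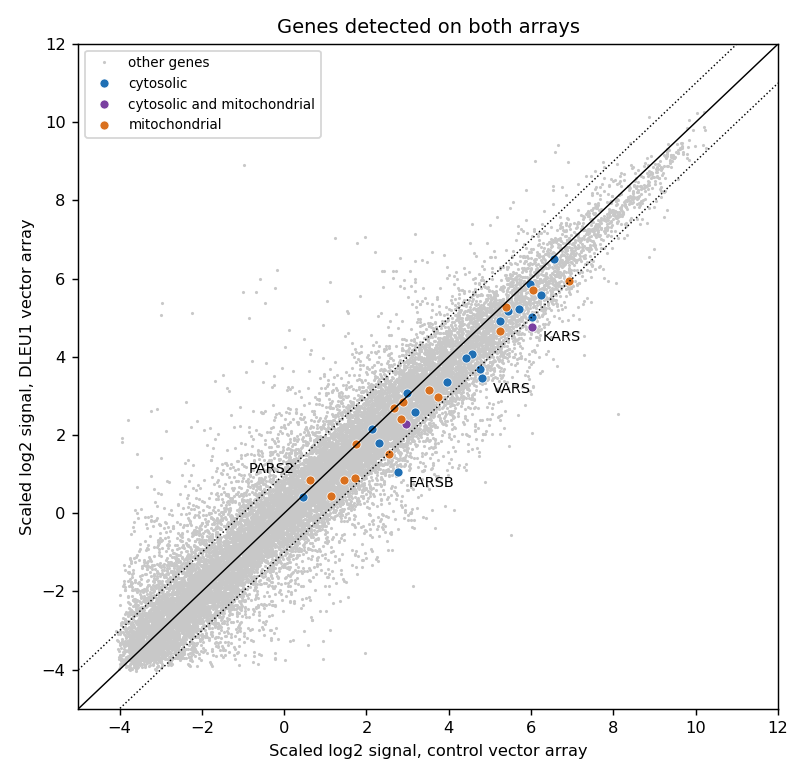
Scaled log2 signal on the control vector array (horizontal) and the DLEU1 vector array (vertical) for genes detected on both arrays, 1 point per gene, with synthetases coloured by compartment, a solid line of equal signal and dotted lines at 2-fold. Synthetases lie from near 0 to near 7 on the horizontal axis, and 30 of 35 are below the line of equal signal, beside 10968 of all 20246 genes.

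Phenylalanyl-tRNA synthetase of the cytosol is built from the alpha subunit FARSA and the beta subunit FARSB, and both were at least 2-fold lower. FARSB read 2.76 in control vector cells and 1.05 in DLEU1 vector cells, a 3.27-fold lower signal (-1.71). FARSA read 4.76 and 3.70, a difference of -1.07. The single-chain mitochondrial enzyme for the same amino acid, FARS2, read 1.74 and 1.78 (0.04). The gaps of FARS2 over FARSB (1.75) and over FARSA (1.11) were above the SD of probes around their gene mean (0.470). Each gap lies between 1 probe of each gene, for which the spread is wider, and it was not tested. Valyl-tRNA synthetase (VARS), which associates with elongation factor eEF1, was the next lowest. VARS read 4.81 in control vector cells and 3.46 in DLEU1 vector cells, 2.55-fold lower (-1.35). FARSB and VARS were the 2 genes detected on both arrays that stayed at least 2-fold lower under every alternative setting that gave gene values, with highest differences of -1.55 and -1.13.

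Both genes that make cytosolic and mitochondrial forms were lower. KARS, which charges lysine and belongs to the multi-synthetase complex, read 6.02 and 4.77, 2.38-fold lower (-1.25), and was just short of 2-fold with loess normalization (-0.99). GARS, which charges glycine, read 2.96 and 2.29 (-0.68).

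Of the mitochondrial enzymes, NARS2 (asparagine) read 2.54 and 1.51, a 2.05-fold lower signal. MARS2 (methionine) was well above background on the control vector array only, where its processed signal was 36.9 beside 15.1 on the DLEU1 vector array. Its level with the DLEU1 vector (-3.97) was above the dimmest detected level of that array (-4.04). The bound was therefore the measured scaled ratio, 2.38-fold lower, and it rests on dim signals, that of the DLEU1 vector array not being told from background. IARS, the cytosolic isoleucyl enzyme of the complex, was the member just inside 2-fold, reading 6.03 and 5.02 (2.01-fold lower). CARS2, the mitochondrial cysteinyl enzyme, was just outside it at 6.92 and 5.93 (-0.99). A threshold placed between values this close separates genes whose differences were within the spot SD of each other.

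All 8 enzymes of the multi-synthetase complex on the list were below 0, beside 10968 of all 20246 genes, although QARS changed sign under some scalings. Their median was -0.54, beside -0.43 for the 11 cytosolic synthetases outside the complex. After KARS and IARS came RARS (arginine), which read 6.24 and 5.59 (-0.65). LARS (leucine) read 3.17 and 2.58 (-0.59), MARS (methionine) 4.56 and 4.07 (-0.48), and DARS (aspartate) 5.71 and 5.23 (-0.48). The bifunctional glutamyl-prolyl enzyme EPRS read 5.24 and 4.91 (-0.34), and QARS (glutamine) was nearest to 0 at 5.98 and 5.85 (-0.13). The scaffold of this complex was lower as well. AIMP2 read 5.10 and 3.73 (-1.37), EEF1E1, also called AIMP3, 4.61 and 3.46 (-1.15), and AIMP1 4.68 and 3.98 (-0.70), giving a median of -1.15 over the 3 scaffold genes. The complex genes thus spanned from -1.37 for a scaffold gene to -0.13 for an enzyme on the same pair of arrays.

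Cytosolic enzymes outside the complex were more spread. HARS (histidine) read 3.95 and 3.35 (-0.60), and YARS (tyrosine) read 2.29 and 1.79 (-0.50). NARS (asparagine) had the only member probe spotted 10 times, read 4.41 and 3.98 (-0.43), and its spots ranged from -0.51 to -0.36 with an SD of 0.0467, so for this gene the difference was far larger than the spot error. TARS (threonine) read 5.43 and 5.17 (-0.26). The remaining 4 were near 0, each within or close to 1 spot SD. SARS (serine) read 6.55 and 6.51 (-0.044), CARS (cysteine) 0.46 and 0.42 (-0.039), AARS (alanine) 2.13 and 2.16 (0.026), and WARS 2.98 and 3.06 (0.084). These 4 changed sign under some scalings, so no direction is given for them.

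The 15 mitochondrial enzymes detected on both arrays had a median of -0.42, beside -0.48 for the 18 cytosolic enzymes. LARS2 (leucine) read 1.73 and 0.90 (-0.83), YARS2 (tyrosine) 3.75 and 2.98 (-0.77), and SARS2 (serine) 1.14 and 0.43 (-0.71). EARS2 (glutamate) read 1.47 and 0.85 (-0.62), and IARS2 (isoleucine) 5.25 and 4.65 (-0.60). These 5 lay between the lowest mitochondrial genes and the middle of the list. AARS2 (alanine) read 2.84 and 2.41 (-0.42), TARS2 (threonine) 3.51 and 3.15 (-0.37), and VARS2 (valine) 6.04 and 5.71 (-0.33). RARS2 (arginine) read 5.39 and 5.27 (-0.12), and WARS2 (tryptophan) 2.88 and 2.86 (-0.028). At the upper end, HARS2 (histidine) read 2.67 and 2.70 (0.034) and PARS2 (proline) 0.63 and 0.85 (0.22), the highest difference of all 35. The sign of RARS2, WARS2, HARS2, FARS2 and PARS2 also depended on the scaling.

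Set side by side, cytosolic and mitochondrial partners for the same amino acid did not keep a common order. Among 16 pairs detected on both arrays, the mitochondrial gene had the higher difference in 7 and the lower in 9, and the gap was over 0.5 in 9 pairs. FARS2 and EPRS recur among these pairs, so the pairs are not all separate comparisons. Probes of the same gene varied around its mean with an SD of 0.470, and a gap between 2 probes has a wider spread. Gaps as large as those of HARS2, RARS2, PARS2, NARS2 and SARS2 may therefore reflect the probes used. The mitochondrial gene stood higher by 1.75 for FARS2 over FARSB, 1.11 for FARS2 over FARSA and 1.02 for VARS2 over VARS. It stood lower for CARS2 against CARS (-0.95), SARS2 against SARS (-0.67) and NARS2 against NARS (-0.61). The SARS2 gap rests on the brightest of 3 SARS probes, which ranged from -0.53 to 0.25. The histidine, arginine and proline pairs (HARS2 over HARS at 0.63, RARS2 over RARS at 0.53 and PARS2 over EPRS at 0.55) again had the mitochondrial gene higher. Both tryptophan genes lay near 0, with a gap of -0.11.

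**Figure D3:**
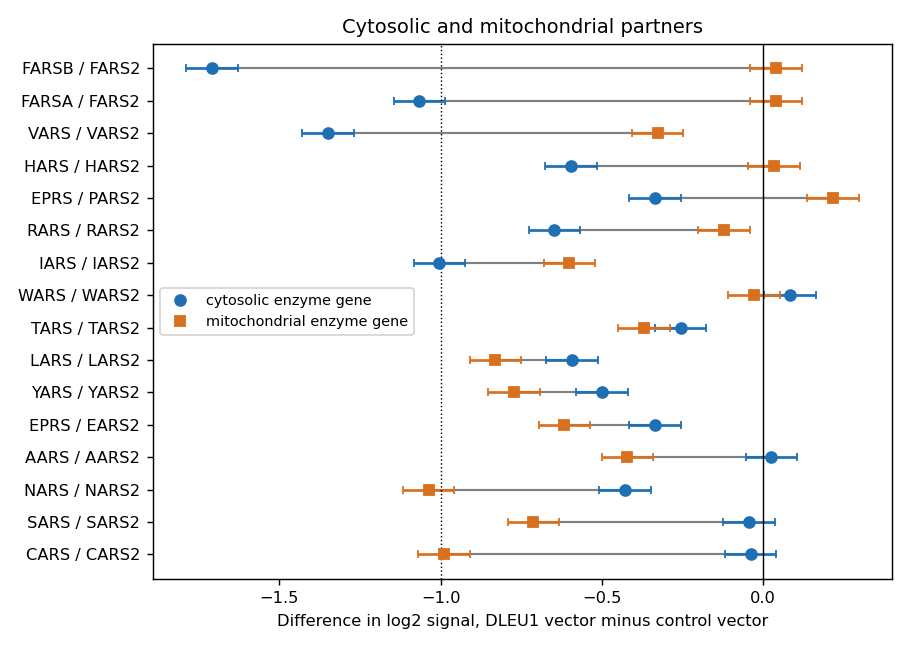
Difference in log2 signal, DLEU1 vector minus control vector, for the cytosolic gene (circle) and mitochondrial gene (square) of each amino acid, joined by a line, with bars of 1 technical SD of a spot (0.0800) and a dotted line at 2-fold lower. The gap runs from 1.75 for FARSB and FARS2, with the mitochondrial gene higher, to -0.95 for CARS and CARS2, with the mitochondrial gene lower.

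Synthetases fall into classes I and II by the fold of their catalytic core. The 17 class I genes had a median of -0.59 with 2 at least 2-fold lower (11.8%). The 17 class II genes had a median of -0.43 with 4 at least 2-fold lower (23.5%). The share of all genes was 9.78%, and these are small counts. EPRS holds a catalytic core of each class in 1 protein.

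A few genes had more than 1 probe. The 3 IARS probes ranged from -1.02 to -0.86, a range of 0.16. The MARS probes, with an upstream probe at chr12:57884057-57884116 (hg19), differed by 0.59, at -0.48 for the brighter and 0.10 for the upstream one. The 3 SARS probes ranged from -0.53 to 0.25, and those at the ends of that range are assigned by the files to other transcript records than the messenger RNA of the brightest probe. No member had probes more than 1 apart on the log2 scale, and the value of MARS and SARS rests on which probe is read.

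Genes induced through ATF4 were examined because the synthetase genes are among its known targets, and their promoters are shown because that group shares a sequence feature. Windows of 300 bases, 250 before to 50 after the start, came from RefSeq (GRCh38.p14) and matched 30 of the 36 members, with none for AARS2, DARS, LARS, VARS, VARS2 and YARS. The letters TGATGNAA, the core of the amino acid response element to which ATF4 binds with a C/EBP partner, were searched on both strands. They were found for 8 of 30 members (26.7%) and for 4.46% of the 27305 genes with a window. The 8 stretches below carry the match in capitals with 10 bases on each side, read along the strand of the gene, and 6 of the 8 hold the same octamer, TGATGCAA, on one strand or the other.
AARS: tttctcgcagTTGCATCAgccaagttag
CARS: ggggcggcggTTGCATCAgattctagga
GARS: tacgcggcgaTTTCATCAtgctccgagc
IARS: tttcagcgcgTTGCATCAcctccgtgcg
MARS: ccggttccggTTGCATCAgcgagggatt
NARS: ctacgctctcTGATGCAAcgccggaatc
TARS: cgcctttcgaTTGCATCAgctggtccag
YARS2: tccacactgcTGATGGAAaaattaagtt
The stretches lie, in GRCh38.p14, at chr16:70289676-70289703 (AARS, minus strand), chr11:3057408-3057435 (CARS, minus), chr7:30594835-30594862 (GARS, plus), chr9:92293693-92293720 (IARS, minus), chr12:57488054-57488081 (MARS, plus), chr18:57621805-57621832 (NARS, minus), chr5:33440957-33440984 (TARS, plus) and chr12:32756077-32756104 (YARS2, minus).

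Members with and without these letters had overlapping differences. The 8 genes with the core ranged from IARS, 2.01-fold lower, to AARS (0.026) with a median of -0.46. The 21 detected genes that had a window without it ranged from -1.71 (FARSB) to 0.22 (PARS2) with a median of -0.60. At least 2-fold lower were 1 of the 8 and 4 of the 21, beside 9.78% of all genes. A list of 13 synthetases known as responsive to ATF4 overlapped this group, as 7 of the 10 of its members with a window held the core, beside 1 of 20 other members, YARS2. That list had a median of -0.43, with VARS and IARS at least 2-fold lower (15.4%). The 22 detected synthetases outside it had a median of -0.60, with 4 at least 2-fold lower (18.2%).

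Other genes of the amino acid response did not move in 1 direction. ATF4 itself read 8.12 and 8.13, a difference of 0.0038. The list, which includes ATF4, spread widely, with a median of -0.14 over 32 detected genes. Of these, 5 (15.6%) were higher by 2-fold or more, beside 9.18% of all genes, and 3 (9.38%) lower by as much, beside 9.78%. ASNS, asparagine synthetase, was at -0.85 and the pseudokinase gene TRIB3 at -0.61, while CHAC1, a glutathione-degrading enzyme, was at 1.03 and ATF3, a stress-induced transcription factor, at 1.13. The extremes were STC2, a secreted glycoprotein hormone, at -2.20 and NUPR1, a stress-induced nuclear protein, at 3.87. The eIF2 kinases sense uncharged transfer RNA or other stress. With eIF2B subunits and further regulators of eIF2 such as IMPACT, they had a median of -0.39 over 14 genes. Of these, 1 (7.14%) was at least 2-fold lower (EIF2B2 at -1.15), beside 9.78% of all genes, and IMPACT was the highest at 0.29. GCN2 (EIF2AK4), the kinase that binds uncharged transfer RNA, was at -0.49.

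WARS was examined on its own since interferon gamma induces it. WARS read 2.98 in control vector cells and 3.06 in DLEU1 vector cells, a difference of 0.084 that is close to the spot SD. Its promoter window held the letters GAAANNGAAA, the core of an interferon-stimulated response element, here in capitals (chr14:100375383-100375412, GRCh38.p14, minus strand), a match found for 6.67% of members with a window and 4.38% of all genes.
WARS: tttcagaaggGAAACTGAAAgaaagagggg
The other such member was EARS2, at -0.62. Interferon gamma response genes had a median of 0.03 over 10 detected genes, with SOCS1 lowest at -0.93. At least 2-fold higher were 2 of the 10 (GBP2 at 2.29 and IRF1 at 1.03), beside 9.18% of all genes. CXCL10 and CXCL11, of 16 listed genes, were detected with the control vector only, and CIITA and HLA-DRA with the DLEU1 vector only. Of all 43317 genes, 1055 were detected with the control vector only and 1232 with the DLEU1 vector only. Other motifs searched on both strands were TTCNNNGAA, a gamma-activated site, and CACGTG, an E-box. The former was found for 16.7% of members, WARS among them (9.38% of all genes), and the latter for 13.3% (8.77%).

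HARS and HARS2 start back to back, and the stretch between their starts is shown because they share a promoter region. Their differences were -0.60 and 0.034, a gap of 0.63 between 1 probe of each gene. Probes of the same gene varied around its mean with an SD of 0.470, and a gap between 2 probes has a wider spread. Whether the 2 genes differ therefore cannot be told from this gap. The stretch is 84 bases long (chr5:140691371-140691454, GRCh38.p14, plus strand).
HARS and HARS2: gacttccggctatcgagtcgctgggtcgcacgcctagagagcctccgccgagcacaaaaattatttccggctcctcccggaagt
The 2 proteins are close relatives, and whether their probes read the transcript of the other gene was not tested.

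Lists of genes that act with the synthetases differed among themselves. Those that process and export transfer RNA had a median of -0.83 over 28 detected genes, of which 9 were at least 2-fold lower and 0 were higher by that much, from TRMT5, a transfer RNA methyltransferase, at -1.80 to ADAT2, a deaminase subunit, at 0.30, and the exporter XPOT was at -1.09. Mitochondrial translation factors had a median of -0.72 over 17 genes, with 3 at least 2-fold lower, from GATC, a subunit of the mitochondrial glutaminyl-tRNA amidotransferase, at -1.42 to the initiation factor MTIF3 at 0.44. Cytosolic elongation and release factors had a median of -0.67 over 8 genes, with 3 at least 2-fold lower, from EEF1G at -1.34 to EEF2 at 0.05. Synthetase-like and related genes had a median of -0.18 over 6 genes, none (0) past 2-fold, from the deacylase DTD2 at -0.77 to SEPSECS, which makes selenocysteinyl-tRNA, at 0.63. Genes at least 2-fold lower made up 32.1% of the transfer RNA list, 17.6% of the mitochondrial factors and 37.5% of the elongation and release factors. The share of all genes was 9.78%. Medians of the transfer RNA, elongation and mitochondrial factor lists were thus below that of the synthetases, and those of the amino acid response and interferon lists above it.

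**Figure D4:**
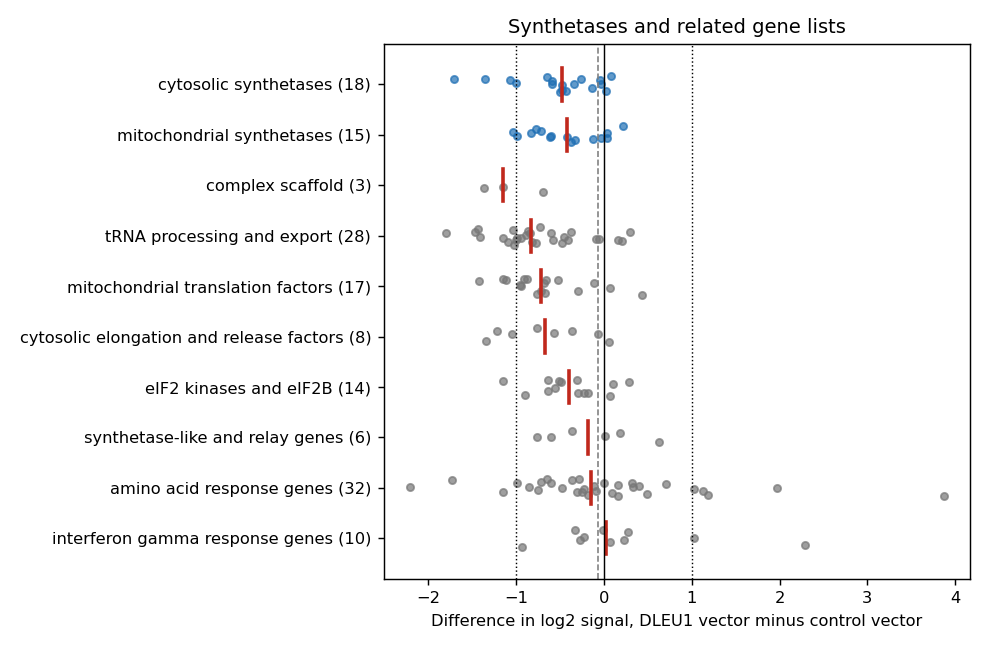
Difference in log2 signal, DLEU1 vector minus control vector, for each gene detected on both arrays in the synthetase lists and in related lists, 1 point per gene, with red lines at list medians, a dashed line at the median of all genes, dotted lines at 2-fold and the number of genes in parentheses. Medians run from -1.15 (complex scaffold) to 0.03 (interferon gamma response genes).

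The median of the synthetases minus the median of all genes was -0.41, a gap that scalings moving all genes alike cannot change. The normalizations that could change it both made it smaller, to -0.28 with quantile normalization and -0.30 with loess. Other processing moved it both ways. It was -0.53 with no filter on dim probes, -0.46 with normexp background correction and -0.37 when signals had to be at least 100. The median of the synthetases alone moved from -0.88, with the signals of 8 spike-in probes set equal, to -0.29 with loess normalization.

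**Figure D5:**
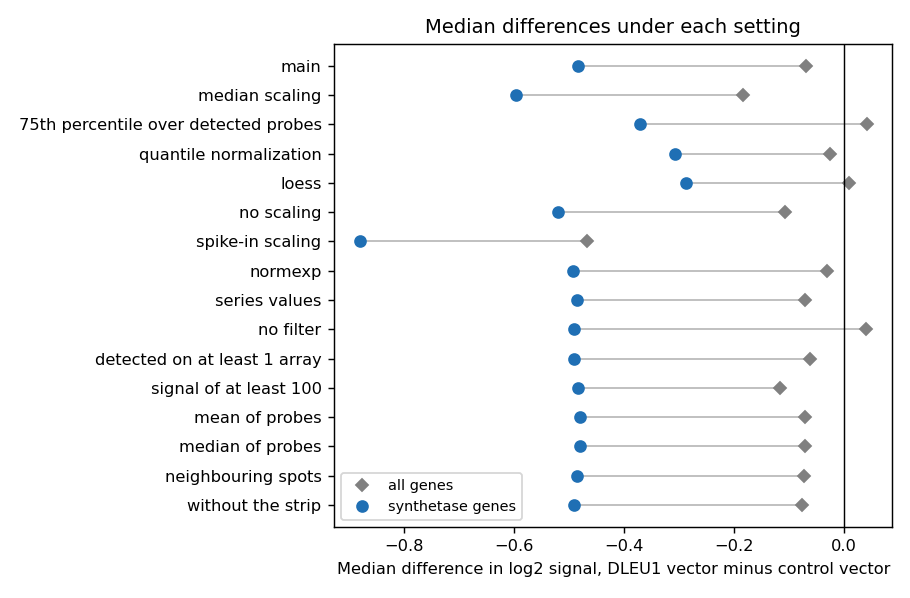
Median difference in log2 signal, DLEU1 vector minus control vector, of the synthetase genes (circles) and of all genes (diamonds) under the reported setting (main) and each alternative of scaling, background, filter, probe choice or array position. The circle lies left of the diamond under every setting shown, with a gap from -0.53 to -0.28.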

How the data were processed

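RNA of 2 cultures was measured on 1 Agilent 1-colour array each (SurePrint G3 Human). Per the file headers, the deposited intensity values are the processed signal of Agilent Feature Extraction 10.7.3.1 (10.7 in the submitters' processing notes), with local background subtracted, and they were not normalized between arrays. The authors used GeneSpring, and a fold threshold for these arrays is not given in the sources used here. The deposited series values held the same intensity, differing by at most 0.497%.

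Control spots and 84 and 103 outlier spots were left out. Spots were put on the log2 scale and averaged for each probe, and the 75th percentile of the array was subtracted (7.92 and 7.88 in log2 units). A probe was detected where most of its spots were marked well above background. Each gene took the value of whichever of its probes, among those detected on both arrays, was brightest. For a probe detected on 1 array, a bound replaced the fold, computed with the dim array set to the probe's own signal or the dimmest detected signal, whichever was higher. Counts used 2-fold. The named genes were all members, with the 5 highest and 5 lowest, all members past 2-fold, WARS, GARS, KARS and partners in full, and the highest and lowest gene of each other list. Other genes named from those lists (ASNS, TRIB3, CHAC1, ATF3, ATF4, EIF2AK4, XPOT, GBP2, IRF1 and marker genes) were chosen after their values were seen. The members and lists were chosen with earlier results of these data known. Spot SD came from 282 replicated probes.

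Python 3.11.15, numpy 2.4.6, pandas 2.3.3, R 4.3.3 and limma 3.58.1 (normexp, loess span 0.3) were used. The scripts were tested on simulated data. Alternatives were other scalings (median, 75th percentile over detected probes, quantile, loess, none, spike-in), normexp with offset 50, the series values, filters, probe summaries, array position and thresholds of 1.5-fold and 3-fold. Precision is limited by the number of arrays.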

Additional observations from a re-analysis of the deposited data

How the results depend on the processing

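With 1 array per group, leaving out a replicate could not be done, and culture-to-culture variation is unmeasured. No paired analysis was possible because each group has 1 array. None of the 15 alternatives that could move a median reversed one. The medians of all, cytosolic and mitochondrial synthetases were -0.60, -0.59 and -0.53 with median scaling, -0.37, -0.37 and -0.31 with the 75th percentile of probes detected on both arrays, -0.31, -0.26 and -0.31 with quantile normalization, -0.29, -0.24 and -0.29 with loess, and -0.88, -0.88 and -0.82 with spike-in scaling. The mitochondrial median was -0.51 without a filter, and likewise when 1 detecting array sufficed. The count at least 2-fold lower was 3 when the percentile was taken over detected probes, 3 under quantile normalization, 2 with loess and 13 with spike-in scaling, and the count past the threshold was 16 at 1.5-fold (45.7%, beside 22.0% of all genes) and 1 at 3-fold (2.86%, beside 3.31%). Of all genes, 12.1% were lower and 7.73% higher with median scaling, 7.78% and 10.9% with that of detected probes, and 21.4% and 5.01% with spike-in scaling. Relative to the reported scaling, the spike-in signals shifted all genes by -0.40. A total of 10 genes changed sign under at least 1 setting (AARS, CARS, FARS2, HARS2, PARS2, QARS, RARS2, SARS, WARS and WARS2), and all 35 members were below 0 with spike-in scaling. The cause of these shifts was not tested.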

Other observations

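Several synthetase genes share a start region with a gene on the opposite strand, by the positions of RefSeq starts (GRCh38.p14). The differences of the paired genes are set against an SD of 0.470 between probes of the same gene. KARS (-1.25) and TERF2IP, a telomere protein gene (0.15), start 108 bases apart. RARS2 (-0.12) and ORC3, a subunit of the origin recognition complex (-1.01), start 148 bases apart, and FARS2 (0.04) and LYRM4, an iron-sulfur cluster assembly factor (-0.72), 57 bases apart. For SARS2 (-0.71) and the mitochondrial ribosomal protein gene MRPS12 (-0.97), 181 bases apart, and for EARS2 (-0.62) and UBFD1 (-0.49), 352 bases apart, both genes were lower. WARS (0.084) and WDR25 (0.46) start 158 bases apart. These are values of 1 pair of arrays with no test.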
